A study of Mus musculus with 12 samples.

Results

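The genes described here encode the potassium channels and their auxiliary subunits. They were chosen by name alone, as every gene of the deposited count tables whose symbol is Kcn followed by letters and a number, and 92 of the 24525 genes listed met that rule. By their symbols 15 encode inward rectifiers (Kir, Kcnj), 14 encode two-pore domain channels (K2P, Kcnk) and 40 encode pore-forming subunits related to voltage-gated channels (Kv). Another 8 encode pore subunits related to calcium- or sodium-activated channels (Kcnma, Kcnn, Kcnt and Kcnu), called calcium- or sodium-activated below. The other 15 encode auxiliary subunits that form no pore. Another 6 symbols that begin with Kcn, among them the antisense transcripts Kcnd3os and Kcnq1ot1, fell outside the rule.

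RNA-seq was done on neural stem and progenitor cells (NSPCs) that were grown as neurospheres from the forebrain of C57BL/6 embryos at E14.5, kept in EGF and bFGF and collected at passage 1. The 3 wild-type and 3 Ythdf2-/- libraries used here are the input RNA of an m6A immunoprecipitation, whose 6 samples were not analysed here. The Ythdf2-/- allele is germline and has lost the 5' UTR and exon 1, which lay between LoxP sites, so each cell type of the sphere carries it. Ythdf2 binds m6A-modified mRNA and hastens its decay, and the comparison asks which mRNAs differ in level when it is missing.

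Potassium channels let potassium cross the membrane down its gradient and so set the resting potential and shape its changes. A Kir or Kv channel is built of 4 pore subunits, whereas a K2P subunit carries a pair of pore loops and works as a dimer. In the brain Kir channels and K2P leak channels hold glia and progenitors near the potassium equilibrium, and Kv channels with their partners set firing in neurons.

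Each pore loop holds a short signature stretch, the selectivity filter, which lets potassium pass and holds back sodium. It was searched in the longest RefSeq coding sequence of each gene (build GRCm38.p6, the same chromosomes as mm10), in frame and on the coding strand only, as the codon ACN, then NTN, then GGN, then either TAN (the form with tyrosine) or TTN (the form with phenylalanine), and then GGN. The forms differ in 1 base and cannot match at the same place. Of 20470 mouse coding sequences 127 (0.62%) held at least 1 of them. Among the 92 genes 64 did: 14 of 15 Kir, 12 of 14 K2P, 33 of 40 Kv and 5 of 8 calcium- or sodium-activated genes, but 0 of the 15 auxiliary subunits. A pair of filters was found in 11 genes, all of them K2P. The 7 Kv genes with no match were all of the Kcnh group. Among the other pore subunits Kcnn1, Kcnn2, Kcnn3, Kcnk1, Kcnk7 and Kcnj14 had no match. Filters of some pore subunits that had a match follow, with the 5 filter codons in capitals. Since only genes with a match could be shown, these filters do not measure how alike the families are. Each lies in a coding exon.
Kcnj10 (chr1:172369296-172369322, plus strand): cagaccACCATCGGCTATGGCttccgc
Kcnk2, the loop nearer the carboxyl end (chr1:189256575-189256601, minus strand): ctgacgACCATTGGATTTGGAgactac
Kcna2 (chr3:107105218-107105244, plus strand): atgacaACTGTAGGCTATGGAgacatg
Kcnc1 (chr7:46427967-46427993, plus strand): atgacgACACTGGGCTATGGAgacatg
Kcnma1 (chr14:23528407-23528433, minus strand): atgtctACAGTGGGTTATGGGgacgtt
Each line gives 27 bases of the coding strand. Reads over stretches that paralogs share can match more than 1 gene, and how reads with several matches were counted is not given in the sources used here.

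The libraries held 11029827 to 13185778 counted reads, and the 92 genes took 0.1686% to 0.2469% of them. Ythdf2 had 71.9, 73.3 and 91.4 reads per 1000000 counted reads (CPM) in wild-type libraries 1, 2 and 3 and 11.7, 14.7 and 11.1 CPM in Ythdf2-/- libraries 1, 2 and 3. The groups did not overlap, and the log2 fold change was -2.66 (SE 0.183, adjusted p = 0.0547 in edgeR's quasi-likelihood test). Wild-type library 3 stood apart from the rest. Its weight in a fit that weights libraries by how well they agree was 0.0901, against 0.451 to 3.74 for the other 5. Its summed oligodendrocyte lineage markers reached 6057 CPM, against 1853 to 2264 CPM elsewhere. Of the 14 markers 10 were highest in it, while Olig1, Olig2 and Cspg4 were lowest in it. Its young neuron markers summed to 2768 CPM, against 1560 to 1976 CPM, with 10 of 17 highest in it, among them Map2 and Dcx, and 2 lowest, Gap43 and Nefl. Its astroglial markers came to 16607 CPM, against 5248 to 14153 CPM, but only 5 of the 13 were highest in it. Gfap (3046 CPM against 5.55 to 625 CPM) and Aqp4 (1107 CPM against 54.8 to 225 CPM) were the furthest above, whereas Slc1a3 at 1872 CPM and Apoe at 4493 CPM lay within the range of the other libraries and Fgfr3 at 79.8 CPM was below it. The progenitor markers went both ways. Their sum was 4139 CPM, against 5723 to 7780 CPM, and 5 of the 12 were lowest in wild-type library 3 (among them Vim, Fabp7 and Nes), but 6 were highest in it (Sox2, Pax6, Hes1, Hes5, Prom1 and Msi1). Of the cell types outside the neural lineage, Pecam1, Cdh5 and Cldn5 (endothelium), Aif1, P2ry12 and Csf1r (microglia) and Ttr (choroid plexus) were under 1 CPM in each library. The 8 endothelial markers summed to 2.52 to 4.62 CPM and the 12 microglia and macrophage markers to 5.88 to 9.01 CPM. Other lists were not near 0. The 8 choroid plexus and ependymal markers summed to 50.0 to 88.1 CPM, of which Otx2 made up 22.0 to 54.7 CPM and Foxj1 25.6 to 28.8 CPM. The 11 pericyte and mesenchymal markers summed to 102 to 148 CPM, mostly Cspg4, which is also an oligodendrocyte lineage marker. Pdgfrb of that list was at 31.8 CPM in wild-type library 3 and at 0.148 to 3.5 CPM in the other 5. Reads of 4 Y-linked genes numbered 1111 and 1638 in wild-type libraries 1 and 2 and 2147 in Ythdf2-/- library 3, and 0 or 1 in the other 3 libraries, so the libraries with and without them are spread unevenly over the genotypes. In such bulk samples fewer cells of a type and less RNA per cell cannot be told apart. Each genotype held libraries with and without Y-linked reads, and the paper speaks of 3 biological replicates. Nothing in the labels says that the libraries came from separate embryos, so the p-values measure only the spread between these libraries.

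Of the 92 genes, 50 (54.3%) had enough reads to be tested, close to the 53.5% of all genes. On the CPM scale 23 genes had a mean of at least 10 CPM over the 6 libraries, 24 had 1 to 10 CPM and 45 had less than 1 CPM. The tested genes numbered 7 of 15 Kir, 6 of 14 K2P, 24 of 40 Kv, 5 of 8 calcium- or sodium-activated and 8 of 15 auxiliary genes. In all 6 libraries 8 genes had 0 reads: Kcnj1, Kcnj6, Kcnk9, Kcnk15, Kcnk16, Kcnv2, Kcne1 and Kcne3. The 3 highest of the 42 genes that were not tested had 92 reads over the 6 libraries (Kcnh7), 77 (Kcnj3) and 52 (Kcnj13). Reads of Kcnh7 came mostly from 1 library, with 55 in Ythdf2-/- library 2, and those of Kcnj3 from another, with 50 in wild-type library 3.

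To compare genes, levels were set per length as RPKM, the CPM divided by the transcript length in kilobases. On that scale 33 genes had a mean of at least 1 RPKM. The Kv pore subunits made up 47.9% of the summed mean of 443 RPKM, the auxiliary subunits 25.5%, Kir 13.7%, K2P 6.82% and the calcium- or sodium-activated genes 6.0%. The most abundant mRNA was that of Kcnip3 (mean 80.3 RPKM), a calcium-binding protein that joins Kv4 channels and also acts in the nucleus. It was followed by Kcnd3 (61.4 RPKM), which encodes the Kv4.3 pore, Kcnc1 (49.9 RPKM, Kv3.1), Kcnj16 (37.6 RPKM, Kir5.1), Kcna2 (31.3 RPKM, Kv1.2), Kcnd2 (28.4 RPKM, Kv4.2), Kcnk2 (18.8 RPKM, the mechanosensitive leak channel TREK-1), Kcnj10 (17.0 RPKM, Kir4.1), Kcnn2 (15.8 RPKM, a small-conductance calcium-activated channel) and Kcna6 (11.4 RPKM). The first 3 in this order were not apart beyond the spread of the libraries: Kcnip3 ranged from 43.0 to 100.4 RPKM, Kcnd3 from 39.7 to 84.3 RPKM and Kcnc1 from 11.8 to 85.7 RPKM. Both pore subunits of the A-type Kv4 current that were abundant, Kcnd3 and Kcnd2, thus stood in the same top 10 as a Kv4 partner.

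**Figure D1:**
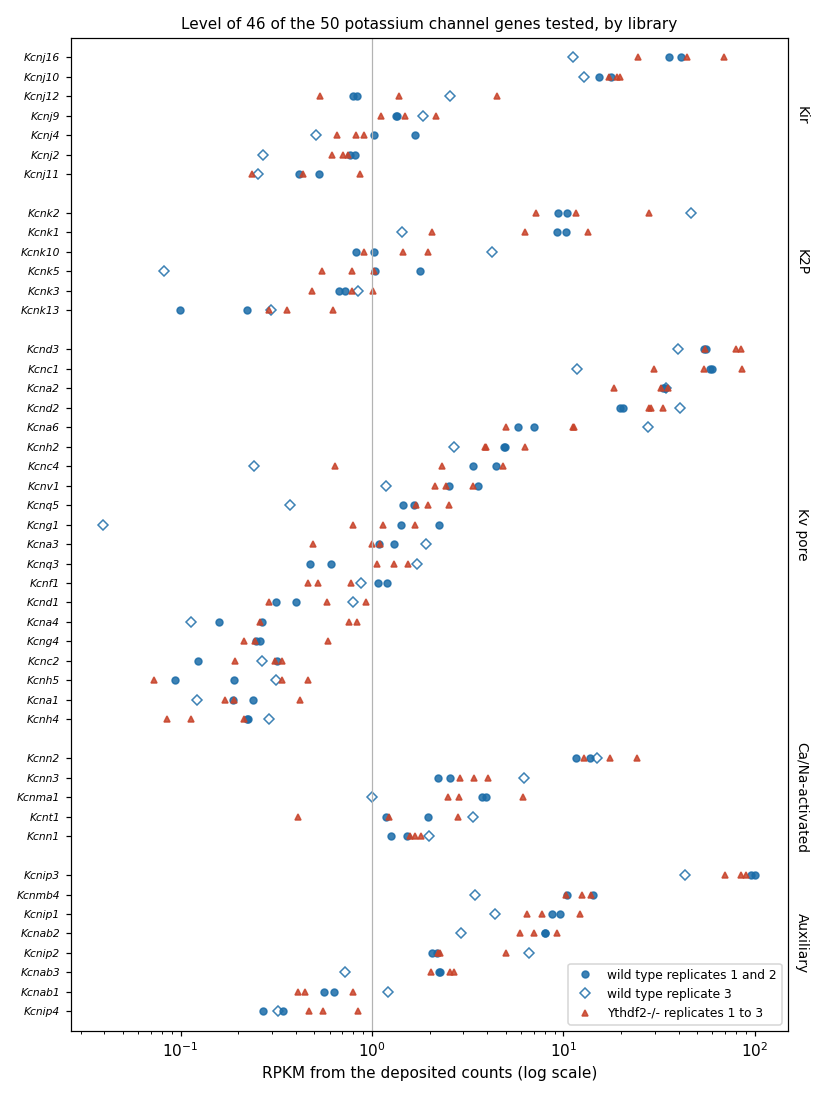
Level of 46 of the 50 tested genes on a log axis in RPKM, computed from the deposited counts, with 1 marker per library and the families grouped along the side; the grey line marks 1 RPKM. Kcnip3, Kcnd3 and Kcnc1 lie highest, and wild-type library 3 (open diamonds) often sits at one end of a gene's row, as for Kcnc1 at 11.8 RPKM against 29.8 to 85.7 RPKM.

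Among the inward rectifiers, Kcnj16 and Kcnj10 stood far above the rest. Their products assemble with each other into a channel of glia that clears potassium after firing. Kcnj16 had 129.6, 150.5 and 41.0 CPM in wild-type libraries 1 to 3 and 162, 89.7 and 253 CPM in the Ythdf2-/- libraries. The groups overlapped, with the lowest value in wild-type library 3 and the highest in Ythdf2-/- library 3, and the means were 107 ± 58.1 and 168 ± 81.6 CPM (SD, n = 3 each). Kcnj10 had 82.9, 96.4 and 69.2 CPM in wild type and 103, 93.3 and 107 CPM in Ythdf2-/-. It varied less than its partner, and its log2 fold change was 0.29 (SE 0.156, adjusted p = 0.999, edgeR). The other Kir genes were low. Kcnj12, a strong rectifier of the Kir2 group, had 3.59, 3.74 and 11.5 CPM in wild type and 6.22, 20.2 and 2.41 CPM in Ythdf2-/-, so that Ythdf2-/- library 2 was 5.41 times the median of the other 5. Kcnj9, a subunit of G protein-gated channels, was even, with 4.36, 4.43 and 6.04 CPM in wild type and 4.86, 3.63 and 7.08 CPM in Ythdf2-/-. Kcnj4 and Kcnj2 (both of the Kir2 group) and Kcnj11 (the pore of the ATP-sensitive channel) were under 1 RPKM on average.

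The Kir family shows how close the genes can lie. Kcnj10 (chr1:172341210-172374085) is next to Kcnj9 (chr1:172320508-172329322, the opposite strand), and Kcnj16 (chr11:110968033-111027968) is next to Kcnj2 (chr11:111066164-111076825). In each pair the abundant gene lay beside a low one, since Kcnj9 was at 1.55 RPKM and Kcnj2 at 0.654 RPKM.

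The two-pore domain genes were led by Kcnk2. It had 31.4, 34.8 and 156 CPM in wild type and 93.8, 38.9 and 24.3 CPM in Ythdf2-/-. Wild-type library 3 was 4.48 times the median of the other 5, and the log2 fold change of -0.50 (SE 0.779) became 0.66 without that library. Exons of Kcnk2 overlap an opposite-strand transcript, A430027H14Rik, and the strand setting of the counting is not given in the sources used here. Kcnk1, which encodes the weak leak channel TWIK-1, had 248, 312 and 36 reads in wild type and 170, 64 and 388 reads in Ythdf2-/-, or 3.29 to 31.2 CPM. It was low in wild-type library 3 and Ythdf2-/- library 2 and high in Ythdf2-/- library 3, and its log2 fold change of 0.06 became -0.42 without wild-type library 3. Kcnk10, a relative of Kcnk2, had 6.16, 4.96 and 25.4 CPM in wild type and 8.78, 11.7 and 5.47 CPM in Ythdf2-/-. As for Kcnk2, its highest value was that of wild-type library 3, 4.11 times the median of the other libraries. Kcnk5, an alkali-sensitive leak channel, had 5.99, 3.51 and 0.275 CPM in wild type and 2.64, 1.85 and 3.46 CPM in Ythdf2-/-. Kcnk3 and Kcnk13 passed the filter at 0.753 and 0.316 RPKM. Summed over the family, K2P mRNA was 53.5 RPKM in wild-type library 3 and 17.8 to 38.2 RPKM in the other 5. Kcnk2 alone made up 46.4 RPKM of that highest sum, so it does not describe the family as a whole. Of the 6 tested K2P genes, 2 were highest in wild-type library 3 (Kcnk2 and Kcnk10) and 2 were lowest in it (Kcnk1 and Kcnk5). Summed Kir mRNA was lowest there, at 31.0 RPKM against 49.6 to 94.4 RPKM. The marker levels of wild-type library 3 are given above, and their part in these sums was not tested.

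The Kv pore subunits were the largest and the most abundant family. Kcnd3 had 289.7, 284 and 207 CPM in wild type and 416, 287 and 439.6 CPM in Ythdf2-/-. The groups overlapped only by Ythdf2-/- library 2, whose value was under that of wild-type library 1. Exons of Kcnd3 overlap those of Kcnd3os on the other strand. Kcnc1, a channel of fast-spiking neurons, had 328, 319.9 and 65.0 CPM in wild type and 300.2, 164 and 472 CPM in Ythdf2-/-. It shared the pattern of Kcnj16 and Kcnk1, lowest in wild-type library 3 and highest in Ythdf2-/- library 3. Kcna2, an axonal low-threshold channel, was steady in wild type, with 394, 385 and 399 CPM, against 409, 214 and 375 CPM in Ythdf2-/-. A single Ythdf2-/- library, the second, lay apart. Its neighbours on chromosome 3, Kcna3 (chr3:107036162-107038129) and Kcna10 (chr3:107183143-107195721), were low, the first at 1.15 RPKM and the other with 28 reads in all. Kcnd2 had 89.9, 93.0 and 185 CPM in wild type and 128, 129 and 150.5 CPM in Ythdf2-/-. Wild-type library 3 was above all Ythdf2-/- libraries and the other wild-type libraries were below them, and the log2 fold change was 0.15 (SE 0.303) with all libraries and 0.57 without wild-type library 3 (adjusted p = 0.152, edgeR).

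Further Kv genes were found at intermediate levels. Kcna6 had 33.9, 41.1 and 161 CPM in wild type and 66.9, 65.2 and 29.4 CPM in Ythdf2-/-, with wild-type library 3 at 3.93 times the median of the others. Lower on the RPKM scale were Kcnh2 (4.45 RPKM, the hERG channel), Kcnc4 (2.65 RPKM) and Kcnv1 (2.54 RPKM, a subunit that only modifies others). Kcnq5, Kcng1, Kcna3 and Kcnq3 had 1.12 to 1.61 RPKM. Below 1 RPKM on average, but tested, were Kcnf1, Kcnd1, Kcna4, Kcng4, Kcnc2, Kcnh5, Kcna1 and Kcnh4.

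Of the calcium- or sodium-activated channels Kcnn2, whose exons overlap those of opposite-strand genes, was the highest. It had 29.2, 34.9 and 37.7 CPM in wild type and 60.9, 44.3 and 32.3 CPM in Ythdf2-/-. Only Ythdf2-/- library 3 fell into the range of wild type, and the log2 fold change was 0.43 (SE 0.252, adjusted p = 0.999, edgeR). Kcnn3, of the same small-conductance group, had 16.9, 19.6 and 47.4 CPM in wild type and 25.9, 21.8 and 30.7 CPM in Ythdf2-/-. Kcnma1, the pore of the large-conductance BK channel, had 19.2, 18.4 and 4.85 CPM in wild type and 12.2, 13.8 and 30.1 CPM in Ythdf2-/-. The former was highest in wild-type library 3 and the latter lowest in it. Kcnt1, a sodium-activated channel, had 7.02, 11.6 and 20.0 CPM in wild type and 16.7, 2.44 and 7.24 CPM in Ythdf2-/-, and Kcnn1 was at 1.64 RPKM.

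Auxiliary subunits bind pore subunits and change their gating or their route to the membrane. Kcnip3 had 285, 269.6 and 122 CPM in wild type and 254, 199 and 239 CPM in Ythdf2-/-. The 3 Ythdf2-/- values lay between wild-type library 3 and the other wild-type libraries. Kcnmb4, the neuronal beta subunit of the BK channel, had 10.4, 14.3 and 3.48 CPM in wild type and 14, 12.5 and 10.4 CPM in Ythdf2-/-. Its exons overlap Kcnmb4os1 and Kcnmb4os2 on the other strand. Kcnip1, another Kv4 partner, had 19.3, 21 and 9.61 CPM in wild type and 17.1, 14.1 and 26.9 CPM in Ythdf2-/-. Kcnab2, a cytoplasmic partner of Kv1 channels, had 28.7, 28.8 and 10.4 CPM in wild type and 21.1, 33.2 and 25.0 CPM in Ythdf2-/-. All 4 of these genes were lowest in wild-type library 3. Kcnip2 (3.39 RPKM), Kcnab3 (2.08 RPKM), Kcnab1 (0.676 RPKM) and Kcnip4 (0.467 RPKM) completed the tested genes, while no Kcne gene within the name rule passed the filter.

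**Figure D2:**
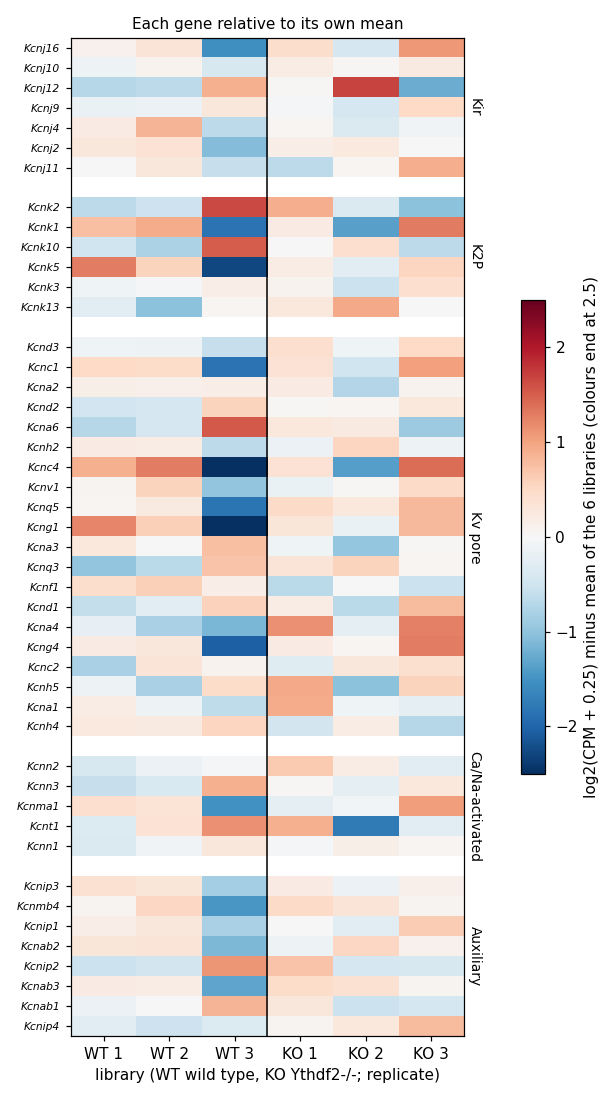
Colour map of log2(CPM + 0.25) of 46 of the 50 tested genes in the 6 libraries minus the mean of the 6, with wild type to the left of the line and Ythdf2-/- to the right; red is above a gene's mean, blue is below it, and colours end at 2.5. Wild-type library 3 holds many of the strong colours, blue for Kcng1, Kcnc4 and Kcnc1 and red for Kcnk2 and Kcna6, and Kcnj12 is deep red in Ythdf2-/- library 2.

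Across the 50 tested genes the highest library was a median of 3.41 times the lowest, against 1.77 times over all 13112 genes tested. The channel genes also had fewer reads, with a median of 558 over the 6 libraries against 2386, and the part of depth in this difference was not tested. Wild-type library 3 was the lowest library for 23 of them (46.0%, against 34.4% of all genes) and the highest for 14 (28.0%, against 33.8%). Ythdf2-/- library 3 was the highest for 18 (36.0%, against 16.3%). A total of 12 genes (24.0%, against 9.37%) were lowest in the former and highest in the latter, among them Kcna4, Kcnc1, Kcnc4, Kcnd3, Kcng4, Kcnip1, Kcnj10, Kcnj16, Kcnk1, Kcnma1 and Kcnq5. The reverse was seen for 4 genes, among them Kcna6, Kcnh4 and Kcnk2 (8.0%, against 9.35%). Kcng1, Kcnc4 and Kcng4 were far lower in wild-type library 3 than elsewhere. Kcng1, a modifier subunit, had 61 and 43 reads in wild-type libraries 1 and 2 and 1 read in library 3, and Kcnc4 had 119, 176 and 8. In Ythdf2-/- they had 25 to 48 and 26 to 182 reads. Kcng4, another modifier subunit, had 0 reads in wild-type library 3 and 11 to 28 in the other 5. More than 3 times the median of the other libraries was reached in a single library by 6 tested genes, among them Kcnj12, Kcnk2, Kcnk10, Kcna6 and Kcna4, beside 5.56% of all genes. For Kcnk2, Kcnk10 and Kcna6 this was wild-type library 3, and the part of its marker levels in these patterns was not tested.

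In Ythdf2-/- against wild type, 33 of the 50 genes (66.0%, against 48.1% of all genes tested) had a higher fitted level and 17 a lower one. The median log2 fold change was 0.17, against -0.01 over all genes tested. By edgeR's quasi-likelihood test adjusted over all genes, 0 of the 50 had an adjusted p under 0.05, and the smallest was 0.999. Of all 13112 genes 0 passed as well (0.0%). With DESeq2 0 of the 50 had an adjusted p under 0.05, against 0.236% of all genes, and 3 were higher and 1 lower at an unadjusted p under 0.05, against 4.27% of all genes in both directions. At an unadjusted p under 0.05, 4 genes were higher (among them Kcna4, Kcnd3 and Kcnip4) and 1 was lower (Kcnf1), where 1.81% and 1.82% of all genes did so, or 3.63% together. Since 0 genes passed after adjustment, the values below are given as measured and not as changes. An exact permutation test of 3 libraries against 3 cannot go below 0.1.

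The markers of cell types were read from the same fit, in which 0 passed after adjustment. At an unadjusted p under 0.05 in edgeR, 6 of the 12 oligodendrocyte lineage markers tested were lower in Ythdf2-/- and 1 was higher, and without wild-type library 3 these were 2 and 1. Of the young neuron markers 2 of 15 were lower, and 1 was lower and 1 higher without that library. Of the progenitor markers 1 of 12 was lower (Prom1), and 1 was lower and 3 higher without it. Of the 13 astroglial markers 1 was lower in both fits, Gfap, with 437, 625 and 3046 CPM in wild type and 127, 87.7 and 5.55 CPM in Ythdf2-/-. Its log2 fold change was -4.22 with all libraries and -2.85 without wild-type library 3. Over all genes 3.63% had such a p with all libraries and 16.6% without that library. The part of these markers in the values of the channel genes was not tested.

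Kcna4, Kcnd3, Kcnip4 and Kcnf1 were low, wide or both. Kcna4, an A-type Kv1 channel, had 1.28, 0.763 and 0.549 CPM in wild type and 3.67, 1.26 and 4.02 CPM in Ythdf2-/-. Ythdf2-/- library 2 lay just under wild-type library 1, so that the groups overlapped, and the other 2 Ythdf2-/- libraries, with 43 and 50 reads, carried the log2 fold change of 1.77 (SE 0.569, unadjusted p 0.0196, adjusted p = 0.999, edgeR). Kcnd3, whose values are given above, had means of 260.1 ± 46.0 and 381 ± 82.3 CPM (SD, n = 3 each). Its log2 fold change of 0.55 (SE 0.227, unadjusted p 0.0498, adjusted p = 0.999, edgeR) was 0.41 without wild-type library 3, with an unadjusted p of 0.0819 in edgeR. Kcnip4, a Kv4 partner, rested on 7 to 21 reads per library, or 0.685, 0.534 and 0.641 CPM in wild type and 0.938, 1.11 and 1.69 CPM in Ythdf2-/-. The groups did not overlap and the log2 fold change was 1.0 (SE 0.389, unadjusted p 0.0403, adjusted p = 0.999, edgeR), but exons of Kcnip4 overlap 5730480H06Rik on the other strand. Kcnf1, a silent subunit that modifies Kv2 channels, had 5.13, 5.72 and 4.21 CPM in wild type and 2.22, 3.70 and 2.49 CPM in Ythdf2-/-. Here the groups did not overlap in the other direction, with a log2 fold change of -0.84 (SE 0.307, unadjusted p 0.0326, adjusted p = 0.999, edgeR).
Without 1 library the unadjusted p of edgeR rose above 0.05 for each of these 4 genes. This was so for Kcna4 without wild-type library 2 or Ythdf2-/- library 1 or 3 (0.0599 to 0.0664 over the 3), for Kcnf1 without any library but wild-type library 3 and Ythdf2-/- library 2 (0.0807 to 0.113), for Kcnd3 without any but Ythdf2-/- library 2 (0.0648 to 0.151) and for Kcnip4 without any but Ythdf2-/- library 1 (0.06 to 0.14).

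**Figure D3:**
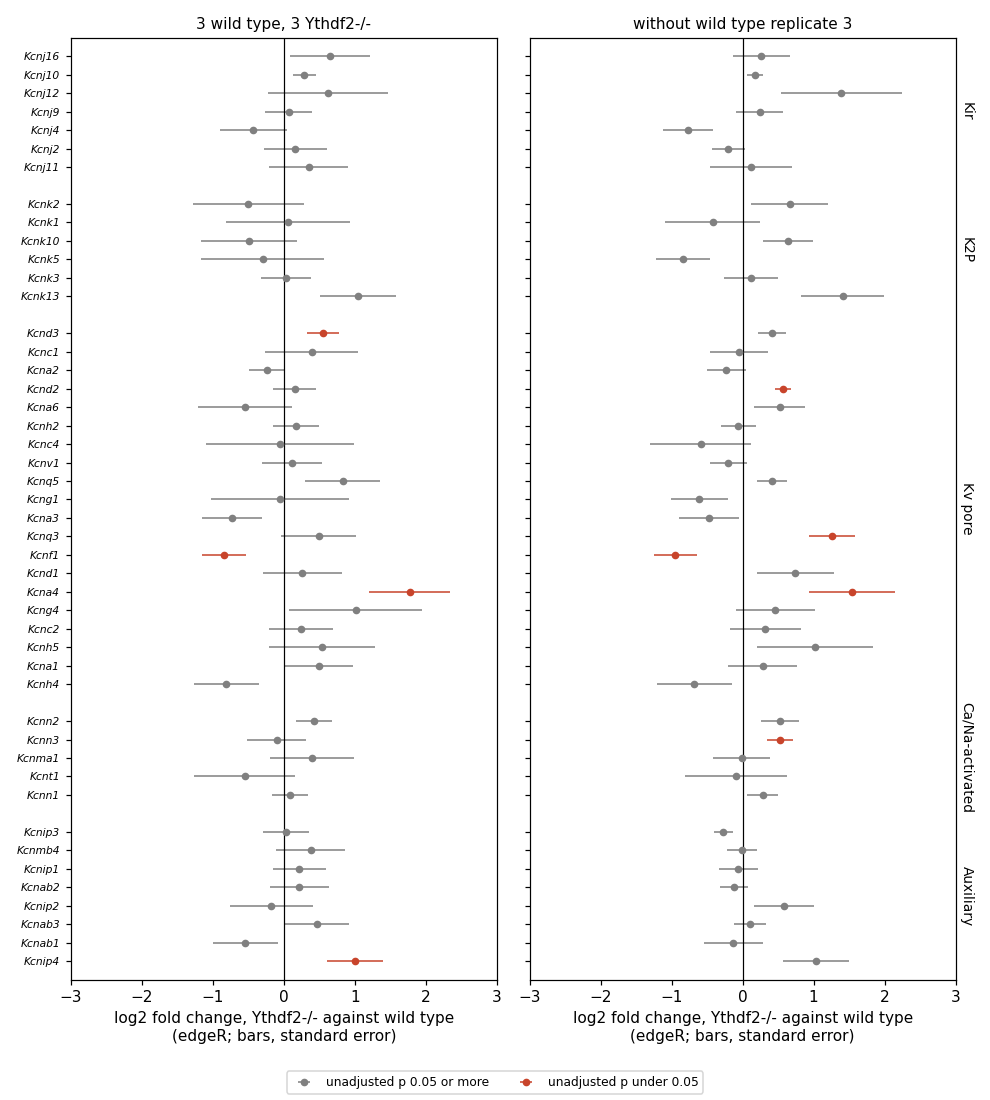
Fitted log2 fold change of 46 of the 50 tested genes, Ythdf2-/- against wild type, with its standard error, from all 6 libraries (left) and without wild-type library 3 (right); red marks genes that edgeR gave an unadjusted p under 0.05. On the left Kcna4, Kcnd3, Kcnip4 and Kcnf1 are red, and on the right 5 genes are, of which Kcna4 and Kcnf1 are red on both sides.

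Counting only whether groups overlapped, 3 genes had all Ythdf2-/- libraries above wild type (among them Kcnip4 and Kcnq5) and 2 had them below (Kcnf1 and Kcnh4). Over all genes tested these shares were 5.24% and 4.92%, or 10.2% together, against 3 and 2 of 50 here, so the channel genes were near the background. Kcnq5, an M-current subunit, had 10.4, 11.8 and 2.65 CPM in wild type and 14, 12.1 and 17.9 CPM in Ythdf2-/-. Its log2 fold change of 0.83 (SE 0.528) was 0.41 without wild-type library 3. Kcnh4 had 0.856, 0.839 and 1.10 CPM in wild type and 0.426, 0.814 and 0.322 CPM in Ythdf2-/-, that is 4 to 12 reads per library.

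Leaving out wild-type library 3 changed which genes stood out. The fitted direction turned for 16 of the 50 genes. Then 29 were higher (58.0%, against 51.7% of all genes) and 21 lower, with a median of 0.20 against 0.01 over all genes. Of the 54 channel genes that then passed the filter 6 were higher and 1 was lower at an unadjusted p under 0.05 in edgeR, beside 8.03% and 8.58% of all genes, so that the count of lower genes was under the background and that of higher genes near it. Among the 7 genes were Kcnd2, Kcnq3, Kcnf1, Kcnn3 and Kcna4, and the smallest adjusted p among them was 0.152 (Kcnd2), so 0 passed after adjustment, beside 0.0151% of all genes. Limma-voom with the library weights above, which keeps wild-type library 3 but gives it little weight, had 12 of the 50 genes higher and 2 lower at an unadjusted p under 0.05, beside 29.9% of all genes in both directions. In that fit 6 had an adjusted p under 0.05, beside 4.82% of all genes, among them Kcnf1 (log2 fold change -1.16), Kcnd2 (0.51), Kcnq3 (1.17), Kcnd3 (0.50) and Kcna4 (1.77), with adjusted p from 0.0389 to 0.0493. Kcnq3, an M-current subunit, had 1.37 and 1.76 CPM in wild-type libraries 1 and 2, 4.94 CPM in library 3 and 3.75, 4.44 and 3.06 CPM in Ythdf2-/-. As for Kcnd2 and Kcnn3, the Ythdf2-/- libraries lay between wild-type library 3 and the other wild-type libraries. Without wild-type library 3 the groups did not overlap for 10 genes in the higher and 6 in the lower direction, where 18.8% and 20.1% of all genes did so.

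Libraries were also set against the Y-linked reads. With a term for them in edgeR 12 channel genes were higher and 2 were lower at an unadjusted p under 0.05, beside 11.0% of all genes in both directions, and 0 passed after adjustment (smallest adjusted p 0.264, Kcnma1), beside 0.0991% of all genes. Kcnj16 then had a log2 fold change of 1.23 in place of 0.65, Kcnc1 1.18 in place of 0.39, Kcnma1 1.03 in place of 0.40 and Kcnq5 1.42 in place of 0.83. Within the libraries that had Y-linked reads Kcnc1 had 328 and 319.9 CPM in wild type and 472 CPM in Ythdf2-/-, and within those without them 65.0 CPM in wild type and 300.2 and 164 CPM in Ythdf2-/-. Wild-type library 3 is the only wild-type library without Y-linked reads, so within wild type the Y-linked reads and that library cannot be told apart.

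The other genes of potassium handling were taken from a list of 45 pumps, cotransporters, exchangers and channel partners, of which 32 were tested. The fitted level of 14 was higher in Ythdf2-/- and that of 18 lower, where 48.1% of all genes tested were higher. The median fold change of the list was -0.05 on the log2 scale, and 0.17 without wild-type library 3. Subunits of the sodium pump were abundant. Atp1b2, a glial beta subunit of the pump, was at 325 RPKM on average and Atp1b3 at 57.9 RPKM. At an unadjusted p under 0.05 the list held 1 gene of 32, beside 3.63% of all genes. It was Cntnap2, an adhesion protein that gathers Kv1 channels along axons. It had 0.77, 1.53 and 35.4 CPM in wild type and 1.45, 0.37 and 0.644 CPM in Ythdf2-/-. The high value was that of wild-type library 3 alone, and the log2 fold change of -3.93 (SE 1.58, adjusted p = 0.999, edgeR) became -0.51 without it. Without that library 5 genes of the list were higher and 2 lower at an unadjusted p under 0.05, where 8.03% and 8.58% of all genes did so.

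Since Ythdf2 binds m6A, the 5-base context GGACT, the commonest in which this mark is found, was counted on the transcript strand of the longest coding transcript of each gene. The 50 tested genes held a median of 1.10 per kilobase, near the 1.05 of 12434 tested genes, with a range from 0.0 to 2.37. Kcnc1 and Kcna3 held 0, and Kcnf1 held 8, or 1.67 per kilobase. Such matches are letters and not measured m6A sites, which were not analysed here. The match nearest the start of the stop codon is shown for Kcnf1, since its groups did not overlap, with the match in capitals. It began 8 bases after the start of the stop codon and lies in the 3' UTR.
Kcnf1 (chr12:17174680-17174706, minus strand): aagtgagagctGGACTccctggcaggg

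The authors' second kind of table, with estimated counts, gave other levels for some of these genes. Its estimates summed to 1.97% to 2.40% of the counted reads. Kcnj16 had 10189 reads in all and estimates that summed to 755, the highest of the family in both tables. Kcnj15, a Kir gene with 30 reads in all, had estimates of 25.5 to 47.3 per library that summed to 202. Kcnk6 had 24 reads and estimates that summed to 62.9. In the other direction Kcnd3 had 23571 reads and estimates that summed to 30.0, and Kcnd2 9407 reads and estimates that summed to 9.0. The deposited FPKM, taken from the same estimates, were above 0 in at least 3 libraries for 32 genes.

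**Figure D4:**
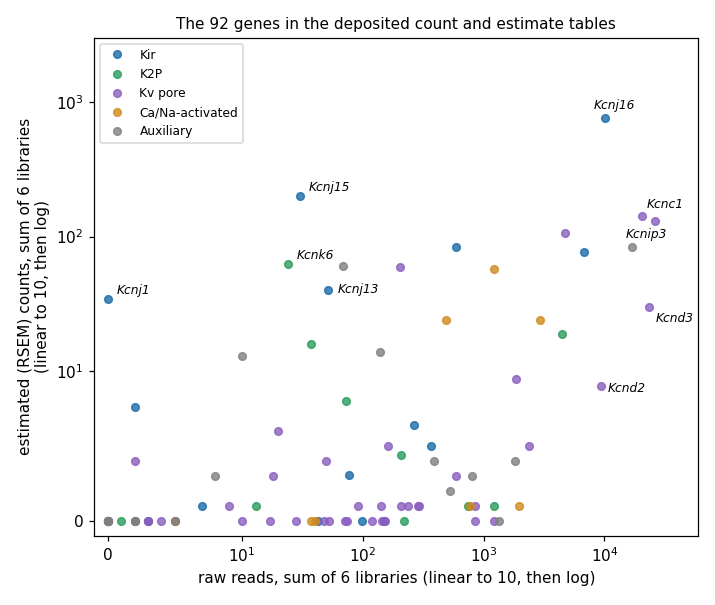
Raw reads against estimated counts of the 92 genes, each summed over the 6 libraries, on axes that are linear to 10 and logarithmic above, coloured by family. Kcnj16 is highest by the estimates (755), Kcnj15 (202) and Kcnk6 (62.9) lie far above genes with as few reads, and Kcnj1 has estimates of 34.4 with 0 reads.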

How the data were processed

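The mRNA of 3 wild-type and 3 Ythdf2-/- neurosphere samples was fragmented and sequenced as the input of an m6A immunoprecipitation. The authors used TopHat and mm10 for alignment, and the deposited raw counts are not normalized and give whole reads for each gene. The submitters' processing notes also name featureCounts, Bowtie2 2.2.9 and RSEM 1.2.15. The strand setting and the treatment of reads with several matches are not given in the sources used here. The authors also deposited expected counts, TPM and FPKM per gene with RSEM's columns, while the methods describe RPKM from Cuffnorm. These rest on about 2% as many reads, so counts are the main measure and TPM was not used further.

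Groups and replicate numbers came from the sample titles. CPM were scaled by TMM (factors 0.988 to 1.03). RPKM used the deposited gene length, averaged over libraries. The whole table was filtered (filterByExpr) and fitted with edgeR 4.0.16 in R 4.3.3 (glmQLFit, robust; glmQLFTest), with genotype as its single term, and p-values were adjusted by Benjamini-Hochberg over 13112 genes. The common biological coefficient of variation was 0.332. Alternatives were DESeq2 1.42.0, limma 3.58.1 (voom, and log2(FPKM + 1)), other scalings and filters, a replicate block, a term for Y-linked reads and each library left out. The scripts were tested on simulated data. Sequences and positions are RefSeq's on GRCm38.p6, in which all 92 symbols were matched.

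Values per library are given for the 4 genes of each family with the highest mean RPKM, for genes with an unadjusted p under 0.05, for genes whose groups do not overlap with a log2 fold change of at least 0.5, and for genes with 1 library above 3 times the median of the other 5; Kcng1, Kcng4, Kcnc4, Kcnq3, Kcnj15 and Kcnk6 were added after their values were seen. Values of some genes and some sequences are not reported here, and those genes are left out of the plots of tested genes. The genes, lists and tests were chosen with earlier results of these data known.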

Additional observations from a re-analysis of the deposited data

Results flagged for a closer look

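The tables of estimated counts, which the comparison of genotypes does not use, held a signal for 3 channel genes that the raw counts put at 3 reads or fewer in all. Kcnj1, the Kir channel best known from the kidney, had 0 reads in each of the 6 libraries and estimates of 1.53 to 8.63 per library that summed to 34.4. Kcnj5, a G protein-gated Kir subunit, had 2 reads and estimates that summed to 7.6, and Kcnq1, a Kv subunit, had 2 reads and estimates that summed to 4.0. Exons of Kcnq1 overlap those of Kcnq1ot1 on the other strand. The cause of the differences was not tested. Outlying values within the groups of 3 libraries were not tested.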

How the results depend on the processing

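At the depth of these libraries a gene such as Kcnh4 was tested on 4 to 12 reads per library, which limits what can be seen of the low genes. The median log2 fold change of the channel genes, 0.17, was positive in all of the 17 alternatives, from 0.01 (without Ythdf2-/- library 3) to 0.36 (with the Y-linked term). Over all genes the median was -0.02 to 0.01 in the fits on counts, but 0.11 on log2(FPKM + 1) and 0.15 on log2(FPKM + 0.1), where 32 channel genes, 23 of them among the 50, had medians of 0.05 and 0.17, so that the excess over all genes was reversed in the former and nearly lost in the latter.

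Against 4 channel genes higher and 1 lower at an unadjusted p under 0.05, the filter of at least 10 counts in each library gave 1 higher (beside 3.60% of all genes in both directions), limma-voom 2 higher (3.47%), voom with library weights 12 and 2 (29.9%), the Y-linked term 12 and 2 (11.0%), and limma on log2(FPKM + 1) or log2(FPKM + 0.1) 1 and 0 (4.38% and 4.09%). Leaving out 1 library gave 0 to 6 higher and 0 to 2 lower, beside 16.6% of all genes without wild-type library 3 and 1.85% to 4.14% without any other. After adjustment the count was 0 in each fit except voom with library weights, where it was 6 (among them Kcnf1, Kcnd2, Kcnq3, Kcnd3 and Kcna4, adjusted p 0.0389 to 0.0493), beside 4.82% of all genes; this fit gives wild-type library 3 little weight. Groups that did not overlap numbered 10 higher and 6 lower without that library, a count added after the data were seen. The number of genes counted as expressed, 50, was 51 to 54 with 1 library left out, 33 at a mean RPKM of at least 1 (also with the longest deposited length, an alternative added later) and 32 by FPKM.

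For the partner list the main fit had 0 higher and 1 lower, beside 3.63% of all genes in both directions. The counts were 2 lower with any gene of at least 1 count (3.35% of all genes) and 0 lower at 10 counts (3.60%). DESeq2 gave 3 lower (4.27%) and voom 0 lower (3.47%). Library weights gave 11 and 4 (29.9%), of which 2 remained after adjustment (4.82% of all genes), and the Y-linked term 1 and 6 (11.0%). On FPKM 2 were higher (4.38% and 4.09%). With 1 library left out 0 to 5 were higher and 0 to 3 lower (1.85% to 16.6%), with a median of -0.12 to 0.17. For Ythdf2 the log2 fold change stayed between -2.78 and -2.54 with 1 library left out. The adjusted p passed under 0.05 with DESeq2 size factors (-2.67), with all genes of at least 1 count (-2.64), at 10 counts (-2.66), in DESeq2 (-2.67), with library weights (-2.61), with the Y-linked term (-2.75) and without wild-type library 3 (adjusted p 0.0203 in edgeR). It was 0.0722 in edgeR on total counts, 0.0727 in limma-voom, 0.246 to 0.866 in edgeR with any other library left out and 1.0 with the replicate block.

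Same-numbered libraries deviated from their group means with correlations of -0.248, -0.244 and -0.394 across genes. Ythdf2-/- library 3 gave 0.349 and 0.399 with wild-type libraries 1 and 2, and wild-type library 3 gave 0.234 and 0.21 with Ythdf2-/- libraries 1 and 2. The remaining combinations gave -0.158 and -0.192. Such deviations depend on wild-type library 3, which stood apart, so they cannot decide whether the replicate numbers pair the libraries. With a replicate block 1 channel gene was higher (Kcna4) and 0 lower at an unadjusted p under 0.05, beside 1.40% of all genes, and 0 after adjustment.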
